A study of Mus musculus with 10 samples.

Results

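Genes of intestinal iron absorption were followed in the ileum after vertical sleeve gastrectomy (VSG), surgery that turns the stomach into a narrow tube. The 7 genes were taken by symbol from a table of 36401 genes: Cybrd1, Slc11a2, Fth1, Slc40a1, Heph, Tfrc and Hmox1. Each symbol had 1 entry, and all 7 passed the filter on low counts. The samples were terminal ileum of male C57Bl6 mice on a diet with 60% of its energy from fat for 6 weeks before surgery, operated on at an age of 8 weeks. Of the 10 mice, 5 had VSG and ate ad libitum, and 5 had sham surgery and were pair-fed to the VSG mice (SPF). About 8 weeks after surgery every mouse was fasted overnight, given 0.5 mL of the liquid diet Osmolite by gavage, and killed after 1 hour. Pair-fed means that the SPF mice were given the amount that the VSG mice ate. Nothing in the labels says which layers of the gut wall a piece of ileum held.

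Dietary iron enters an enterocyte, the absorptive cell of the gut lining, across its apical membrane. Ferric iron is first reduced, then carried in by a transporter, and either kept in ferritin or handed to the exporter on the basolateral side, where a ferroxidase oxidises it for binding to transferrin. Most of this is known to happen in the duodenum. Cells adjust these proteins partly through iron regulatory proteins, which bind a hairpin in the messenger RNA, the iron-responsive element. A hairpin in the 5′ UTR blocks translation when iron is low, and hairpins in the 3′ UTR of the transferrin receptor stabilise its message, so the level of an mRNA is only part of what sets the protein.

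Hairpins of this kind are printed to show which of the 7 messages carry one, in GENCODE M21 transcripts on the mouse build GRCm38. The capitals mark the bulged C and the CAGTG at the start of the loop, written as DNA in the sense of the message. Ftl1, the ferritin light chain, is not one of the 7 and is shown because its element resembles that of Fth1.
Fth1, 5′ UTR, chr19:9982733-9982759, plus strand: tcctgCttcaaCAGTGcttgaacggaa
Ftl1, 5′ UTR, chr7:45459780-45459806, minus strand: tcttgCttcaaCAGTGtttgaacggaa
Slc40a1, 5′ UTR, chr1:45925466-45925492, minus strand: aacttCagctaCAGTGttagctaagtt
Slc11a2, 3′ UTR, chr15:100395153-100395180, minus strand: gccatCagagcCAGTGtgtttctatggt
Tfrc, 3′ UTR, chr16:32631220-32631246, plus strand: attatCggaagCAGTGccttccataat
Tfrc, 3′ UTR, chr16:32631599-32631625, plus strand: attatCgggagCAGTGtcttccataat
Tfrc, 3′ UTR, chr16:32631664-32631690, plus strand: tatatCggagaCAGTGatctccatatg
Tfrc, 3′ UTR, chr16:32631711-32631737, plus strand: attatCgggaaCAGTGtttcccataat

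The search asked for the bulged C, a CAGTG, 5 paired bases above the bulge and at least 3 of 5 below it. By this rule 0.0449% of 20062 genes with a 5′ UTR and 0.172% of 20874 genes with a 3′ UTR held a match. The Slc11a2 element was found only under a second rule. That rule asked for at least 4 of 5 upper pairs, at least 4 of 5 lower pairs and 1 extra base on the 3′ side. Sites that failed the first rule and met the second lay in the 5′ UTR of 0.0947% of genes and in the 3′ UTR of 0.355%. The Slc11a2 element lies in 1 of 6 annotated protein-coding transcripts of Slc11a2, and the Slc40a1 element in 1 of 4. The Fth1 element lies in 4 of 5 such transcripts, and the Tfrc elements in 1 of 3. The deposited counts are per gene, so forms with and without an element cannot be told apart here. No match by either rule was found in UTRs of Cybrd1, Heph or Hmox1, which says only that these letters are not in the annotated UTRs.

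Total estimated counts ran from 15364651 to 34058181 per library. In 3 libraries, VSG 2, SPF 2 and SPF 4, Gata4, which encodes a regulator known to mark duodenum and jejunum, reached 109.5 to 183.5 CPM (library-size-normalised counts, scaled per 1000000), against 1.72 to 6.28 CPM in the other 7. They were taken as those above the largest gap in Gata4, 4.11 on the log2 scale. The summed level of 5 ileum markers was 353 to 539 CPM in these 3 and 4171 to 8984 CPM in the other 7, so markers of the labelled tissue were low in 3 libraries. A fold change is therefore given over all 10 libraries and over the other 7, which are 4 VSG and 3 SPF libraries. SPF 3 stood apart in another way: the median of genes with over 5000 bases of exon, less that of genes with under 1500, was -0.87 on the log2 scale, against -0.08 to 0.33 in the other 9 libraries, a pattern of the kind that RNA quality can give. Nothing says that the labels' replicate numbers pair the animals. The p-values set the difference between the groups against the spread between the libraries of these mice within a group. Over all 10 libraries that spread includes the split in Gata4, and in both sets it includes SPF 3.

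The exporter Slc40a1, its partner Heph, the transporter Slc11a2 and the receptor Tfrc had higher means in VSG than in SPF, with log2 fold changes of 1.12, 0.45, 0.32 and 0.56. Hmox1 stood at 0.17, Cybrd1 at -0.14 and Fth1 at -0.46. None of these differences passed the adjusted threshold. Over all 10 libraries edgeR's quasi-likelihood test called 0 of 15678 genes at an adjusted p under 0.05, or 0%, and 0 of the 7. At an unadjusted p under 0.05 with higher values in VSG stood 2 of the 7 genes, Heph and Tfrc, where 1.88% of all genes did. Complete separation, every VSG library above every SPF library, held for 0 of the 7 genes and for 0.255% of all genes.

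In the 7 libraries with low Gata4 the same test again called 0 of 15911 genes, or 0%. There 4 of the 7 genes, Slc40a1, Slc11a2, Heph and Tfrc, stood at an unadjusted p under 0.05 with higher values in VSG, where 3.7% of all genes did. Slc40a1, Slc11a2 and Heph were higher in each of the 4 VSG libraries than in any of the 3 SPF libraries, which held for 4.37% of all genes. The 7 genes had a median log2 fold change of 0.32 over 10 libraries and 0.53 over the 7, beside -0.045 and -0.051 for all genes tested. Because they were picked with results of these data known, these counts and medians describe the genes and carry no test of their own.

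**Figure D1:**
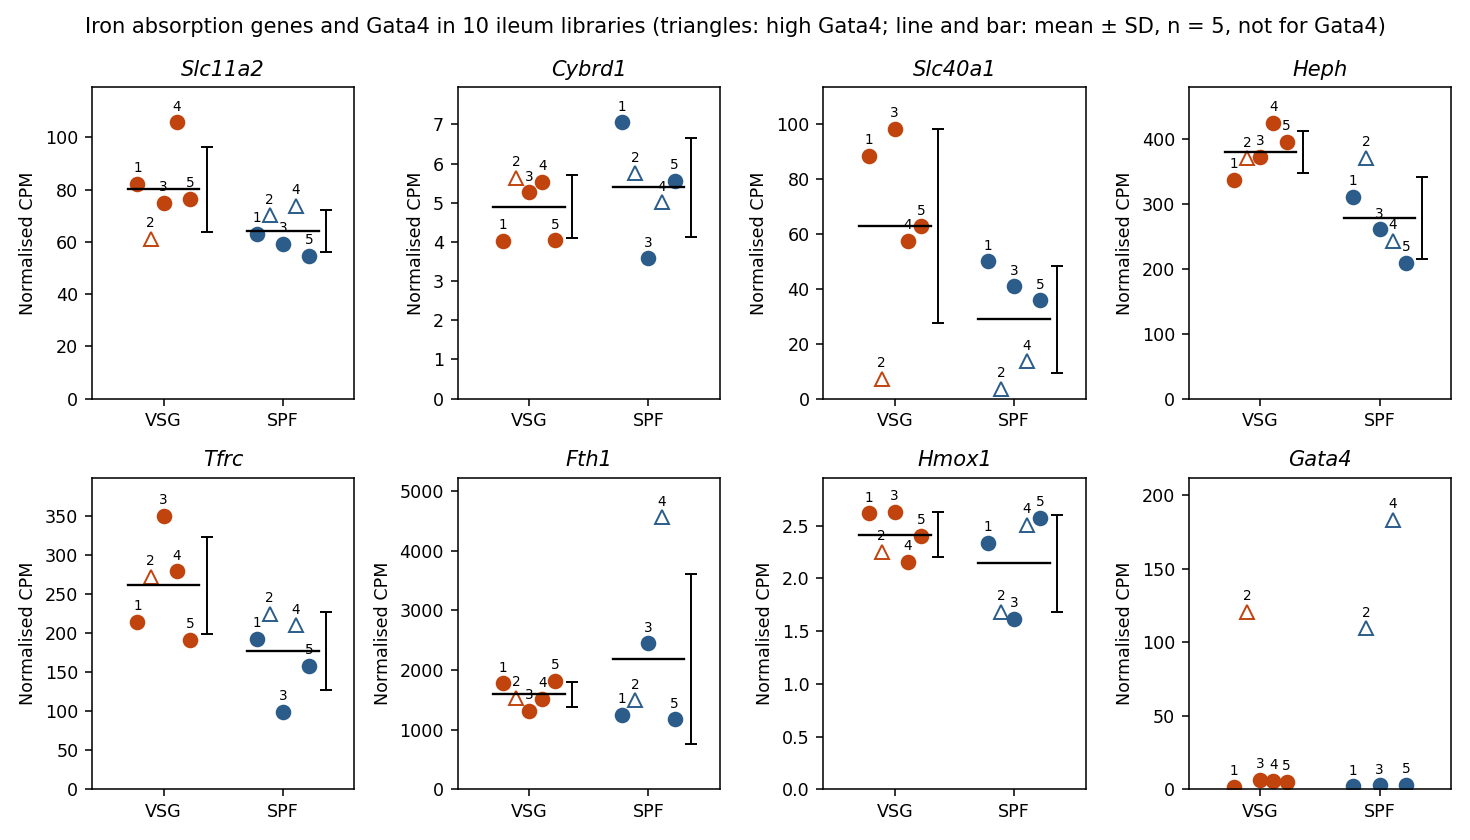
Normalised CPM (vertical axes, from 0) of the 7 iron genes and of Gata4, with VSG libraries on the left and SPF libraries on the right of each panel, numbered by replicate. Open triangles are the 3 libraries high in Gata4, and lines and bars are mean and SD (n = 5). Slc40a1 lies at 3.68 to 13.6 CPM in the triangles and at 35.8 to 98.3 CPM in the circles, while Heph and Tfrc show no such split.

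Uptake at the apical side rests on Cybrd1 and Slc11a2. Cybrd1 (ENSMUSG00000027015), the duodenal cytochrome b that reduces ferric iron, was low in every library, with 78 to 217 counts. Its levels were 4.02, 5.63, 5.27, 5.53 and 4.04 CPM in VSG 1 to 5 and 7.05, 5.75, 3.58, 5.01 and 5.57 CPM in SPF 1 to 5. All VSG values lay within the SPF range, which ran from SPF 3, the library with low values for long genes, to SPF 1. The averages were 4.90 ± 0.80 CPM in VSG and 5.39 ± 1.26 CPM in SPF (SD, n = 5 each), with a log2 fold change of -0.14 ± 0.21 (SE) and a 95% interval of -0.59 to 0.31 (edgeR adjusted p = 0.977). The interval leaves room for a difference either way.

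Slc11a2 (ENSMUSG00000023030) encodes the divalent metal transporter DMT1, which carries ferrous iron into the cell. It stood at 82.4, 61.1, 75.0, 105.8 and 76.4 CPM in VSG 1 to 5 and at 63.0, 70.2, 59.3, 73.9 and 54.6 CPM in SPF 1 to 5. VSG 4 was the highest library, and the groups overlapped only through VSG 2, which lay below SPF 1, SPF 2 and SPF 4. Over all 10 libraries the log2 fold change was 0.32 ± 0.15 (SE), with an interval of -0.02 to 0.66 (edgeR unadjusted p = 0.0591, adjusted p = 0.977). In the 7 libraries the averages were 84.9 ± 14.3 CPM in VSG (SD, n = 4) and 59.0 ± 4.21 CPM in SPF (SD, n = 3). The log2 fold change there was 0.53 ± 0.16 (SE), interval 0.17 to 0.89 (edgeR unadjusted p = 0.00953, adjusted p = 0.633).

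Iron that stays in the cell is held by ferritin. Fth1 (ENSMUSG00000024661), the ferritin heavy chain, was the most abundant of the 7, with 1778, 1534, 1319, 1518 and 1821 CPM in VSG 1 to 5 and 1248, 1492, 2450, 4559 and 1174 CPM in SPF 1 to 5. VSG spanned a narrow range inside that of SPF, and SPF 4 and SPF 3 were the highest libraries. The log2 fold change of -0.46 ± 0.37 (SE) over all 10 (edgeR adjusted p = 0.977) was 0.0079 without SPF 4 and -0.01 ± 0.29 (SE) in the 7 libraries. SPF 4 is among the libraries high in Gata4 and SPF 3 is the one with low values for long genes. Fth1 has processed copies elsewhere in the mouse genome, and how the authors' counting divided reads between such copies is not known here, which makes its level uncertain.

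Export across the basolateral side rests on Slc40a1 and Heph. Slc40a1 (ENSMUSG00000025993) encodes ferroportin, the known iron exporter of animal cells. Its levels were 88.4, 7.22, 98.3, 57.5 and 62.7 CPM in VSG 1 to 5 and 50.0, 3.68, 40.9, 13.6 and 35.8 CPM in SPF 1 to 5. VSG 2, SPF 2 and SPF 4 were the lowest libraries of all. Among the other 7, the lowest VSG library still lay above the highest SPF library. Over all 10 libraries the averages were 62.8 ± 35.5 CPM in VSG and 28.8 ± 19.4 CPM in SPF (SD, n = 5 each), and the log2 fold change was 1.12 ± 0.70 (SE) with an interval of -0.41 to 2.65 (edgeR adjusted p = 0.977). Over the 7 they were 76.7 ± 19.7 CPM in VSG (SD, n = 4) and 42.2 ± 7.20 CPM in SPF (SD, n = 3). The log2 fold change was then 0.86 ± 0.22 (SE) with an interval of 0.35 to 1.37 (edgeR unadjusted p = 0.00429, adjusted p = 0.633).

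Heph (ENSMUSG00000031209) encodes hephaestin, the membrane ferroxidase that works with ferroportin. It stood at 337, 371, 373, 426 and 397 CPM in VSG 1 to 5 and at 311, 371, 261, 243 and 209 CPM in SPF 1 to 5. SPF 2 alone among the SPF libraries reached the VSG range. The averages were 381 ± 32.9 CPM in VSG and 279 ± 63.2 CPM in SPF (SD, n = 5 each), with a log2 fold change of 0.45 ± 0.17 (SE) and an interval of 0.08 to 0.82 (edgeR unadjusted p = 0.0225, adjusted p = 0.977). In the 7 libraries the log2 fold change was 0.56 ± 0.18 (SE), with an edgeR unadjusted p of 0.0148 and an adjusted p of 0.633.

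Tfrc (ENSMUSG00000022797) encodes the transferrin receptor, by which cells, dividing ones above all, take iron from the blood. It stood at 213.7, 272, 349.5, 278.5 and 191 CPM in VSG 1 to 5 and at 193, 224, 99.4, 209.6 and 158 CPM in SPF 1 to 5. VSG 3 was the highest and SPF 3 the lowest library, and the groups overlapped between 191 and 224 CPM. The log2 fold change was 0.56 ± 0.24 (SE) over all 10, with an interval of 0.04 to 1.08 (edgeR unadjusted p = 0.0368, adjusted p = 0.977), and 0.79 ± 0.28 (SE) in the 7 (edgeR unadjusted p = 0.0231, adjusted p = 0.669). Leaving SPF 3 out of the 7 as well gave 0.56. Of the markers of cycling crypt cells, the dividing cells of the gut lining, 11 of 11 had negative log2 fold changes over 10 libraries, as had 9105 of 15678 genes. Their sums overlapped, at 338 to 874 CPM in VSG and 642 to 997 CPM in SPF. At an unadjusted p under 0.05 stood 0 of the 11 over 10 libraries. Over the 7, 2 did with lower values in VSG, where 3.26% of all genes did. A link between these markers and Tfrc was not tested.

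Hmox1 (ENSMUSG00000005413), haem oxygenase 1, opens the haem ring and frees its iron. It had 39 to 99 counts per library, the fewest of the 7 genes. Levels were 2.62, 2.25, 2.63, 2.16 and 2.40 CPM in VSG 1 to 5 and 2.34, 1.68, 1.61, 2.51 and 2.58 CPM in SPF 1 to 5. SPF 2 and SPF 3 lay below every VSG library, and the other 3 SPF libraries lay within the VSG range. The log2 fold change was 0.17 ± 0.20 (SE) over all 10 libraries (edgeR adjusted p = 0.977).

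**Figure D2:**
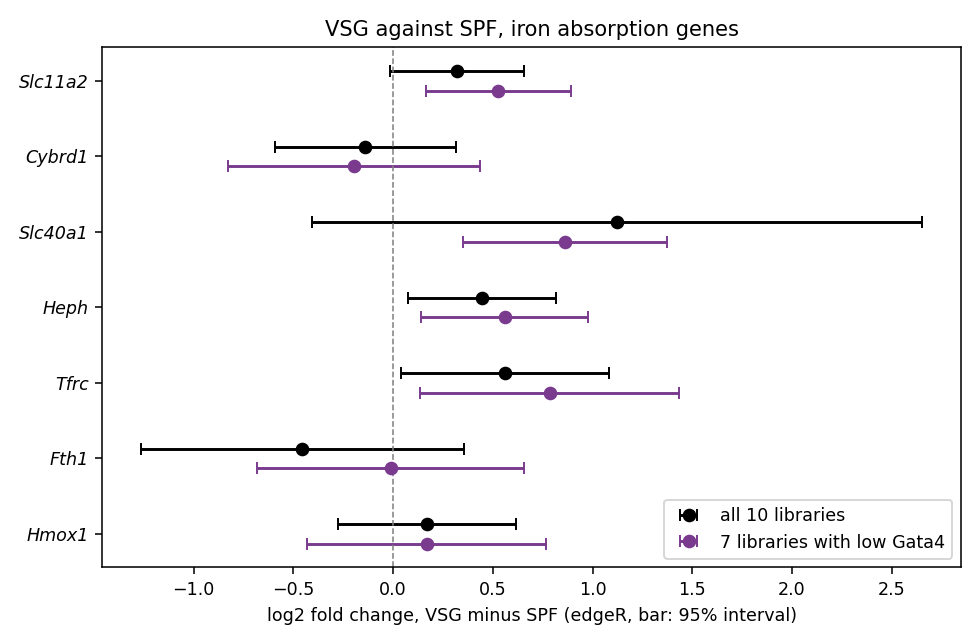
Log2 fold change of each gene, VSG minus SPF, from edgeR, with its 95% interval, over all 10 libraries (black) and over the 7 with low Gata4 (purple). The interval of Slc40a1 runs from -0.41 to 2.65 over 10 libraries and from 0.35 to 1.37 over 7, and those of Cybrd1, Fth1 and Hmox1 include 0 in both.

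Levels of the genes were compared per kilobase of annotated exon. The median over the 10 libraries was 440 CPM per kb for Fth1, 46.2 for Heph, 34.2 for Tfrc, 11.3 for Slc11a2, 5.05 for Slc40a1, 1.35 for Hmox1 and 1.01 for Cybrd1. Fth1, at 339 to 1314 CPM per kb, was clear of Heph, at 27.3 to 55.6 CPM per kb. The ranges of all other neighbours in this order overlapped between libraries. Within every single library, however, Tfrc lay above Slc11a2, with 16.1 against 9.33 CPM per kb in SPF 3. Slc11a2 likewise lay above Slc40a1, with 11.8 against 10.9 CPM per kb in VSG 3. Exon length is the union over annotated transcripts, which lowers the value of a gene with rarely used exons.

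Markers of several cell types had log2 fold changes in either direction. For scale, 6869 of all 15911 genes had positive and 9042 negative values in the 7 libraries. In bulk samples, fewer cells of a type and less RNA per cell cannot be told apart. In the 7 libraries, 9 of 9 enterocyte markers had positive log2 fold changes, with a median of 0.46 and sums of 27920 to 45860 CPM in VSG and 17880 to 29780 CPM in SPF. Of 13 macrophage markers tested, 10 had negative ones, and the macrophage list summed to 288 to 570 CPM in VSG and 777 to 952 CPM in SPF. Macrophages are known to hold much Slc40a1 and Hmox1. Lyz2, at 124 to 373 CPM in VSG and 535 to 708 CPM in SPF, is one of these markers, and Paneth cells of the crypts may also express it. It made up 373 of 570 CPM of the macrophage sum in VSG 3 and 605 of 803 CPM in SPF 5. The gap between the sums of the groups thus rests largely on Lyz2, though not on Lyz2 alone. Of the 13 macrophage markers, 5 with Lyz2 among them stood at an edgeR unadjusted p under 0.05 with lower values in VSG. Of all genes, 3.26% did so in the 7 libraries, and 0 of the 13 passed the adjusted threshold. Smooth muscle markers summed to 669 to 1433 CPM in VSG and 277 to 3594 CPM in SPF, with SPF 5 the highest. Each of these lists had counts for every marker, so no defining marker was at 0. All 7 T cell markers had negative log2 fold changes, with a median of -0.92 and sums of 15.9 to 40.1 CPM in VSG and 30.7 to 65.1 CPM in SPF. B cell follicle markers, also 7 of 7 negative with a median of -0.66, summed to 15.9 to 183.4 CPM in VSG and 74.1 to 239 CPM in SPF. For fibroblasts 7 of 7 were negative as well, with a median of -0.50 and sums of 314 to 479.7 CPM in VSG and 256.5 to 610.5 CPM in SPF. Those of plasma cells were positive for 6 of 6 markers, with a median of 0.37 and sums of 888 to 1285 CPM in VSG and 678 to 986 CPM in SPF. Red blood cell markers summed to 36.4 to 136.7 CPM in VSG and 82.2 to 173 CPM in SPF. The part of cell content in the differences of the iron genes was not tested.

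Slc40a1 and Cybrd1 were next set against Gata4. Slc40a1 was at 7.22, 3.68 and 13.6 CPM in VSG 2, SPF 2 and SPF 4, and at 35.8 to 98.3 CPM in the other 7 libraries. It was the single one of the 7 genes with all 3 libraries below the other 7, as were 5.64% of all genes. None of the 7 had all 3 above, as had 6.08% of all genes. Cybrd1 stood at 5.63, 5.75 and 5.01 CPM in the 3 libraries, inside its range of 3.58 to 7.05 CPM in the other 7. Slc11a2 was at 61.1 to 73.9 CPM in the 3 and 54.6 to 105.8 CPM in the other 7, and Heph at 243 to 371 CPM and 209 to 426 CPM. Tfrc, at 209.6 to 272 CPM and 99.4 to 349.5 CPM, overlapped as well. Fth1 reached 4559 CPM in SPF 4 but was at 1534 CPM in VSG 2 and 1492 CPM in SPF 2. Since the 3 libraries differ in position along the gut by their markers, position and anything else these 3 mice share cannot be told apart.

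**Figure D3:**
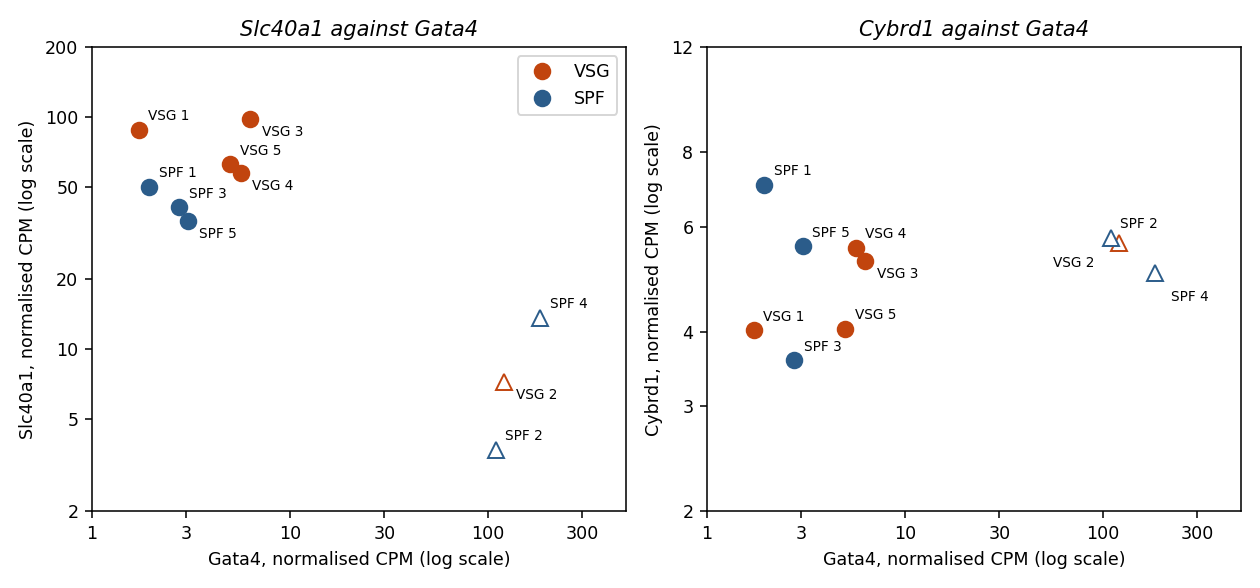
Slc40a1 (left) and Cybrd1 (right) against Gata4, all in normalised CPM on log axes, with VSG libraries in red and SPF libraries in blue. Slc40a1 is below 14 CPM in the 3 libraries with Gata4 of 109.5 CPM or more (triangles) and above 35 CPM in the rest, while Cybrd1 lies between 3.58 and 7.05 CPM throughout.

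The libraries fall into separate Gata4 clusters, so no correlation over all 10 is given. Within the 7 libraries with low Gata4, Pearson's r of log2 CPM with Gata4 was 0.24 for Slc40a1 (exact permutation p = 0.582, adjusted p = 0.97) with a Spearman rho of 0.29 (exact permutation p = 0.556, adjusted p = 0.84). For Cybrd1 r was 0.02 (exact permutation p = 0.97, adjusted p = 0.97) and rho 0.14 (exact permutation p = 0.783, adjusted p = 0.84). Both tests were two-sided over the 5040 pairings and adjusted over the 7 genes. Without VSG 3 and VSG 4, the libraries farthest from the median of Gata4, r was -0.26 for Slc40a1 and -0.30 for Cybrd1. The highest r was that of Tfrc, 0.51 (exact permutation p = 0.241, adjusted p = 0.778). No relation was detectable with 7 libraries, over a Gata4 range of 1.72 to 6.28 CPM.

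The genes most like Slc40a1, by Pearson's r of log2 CPM over the 10 libraries among 11013 genes averaging 5 CPM or more, were Hspa1a (0.959), Hspa1b (0.956), Igf2bp2 (0.956), Agpat6 (0.955) and Mfsd1 (0.949). Hspa1a and Hspa1b are near-identical copies, so their reads may be shared. Within the 7 libraries their r with Slc40a1 was 0.961, 0.977, 0.797, 0.578 and 0.675, in the order named. The genes most like Cybrd1 were Thbd (0.946), Lepr (0.945), 9830001H06Rik (0.943), Mga (0.937) and Zfp191 (0.935), and within the 7 libraries their r was 0.950, 0.949, 0.962, 0.963 and 0.973. The points share libraries, depth and cell content, and no p is attached to a choice of the highest values. Cybrd1 was lowest in SPF 3, at 3.58 CPM, and highest in SPF 1, at 7.05 CPM. These 2 libraries also had the lowest and highest value of long less short genes, -0.87 and 0.33 on the log2 scale. The part of gene length in these correlations was not tested.

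The wider set of iron genes lay close to the median of all genes. Of 51 further genes, 46 passed the filter, and 13 had higher and 33 lower values in VSG, with 0 called by edgeR and 0 at an unadjusted p under 0.05. Their median log2 fold change was -0.068, beside -0.045 for all genes. The share of all genes at an unadjusted p under 0.05 was 1.88% higher and 1.91% lower in VSG. In the 7 libraries 23 were higher and 24 lower, with a median of -0.012. There 2 of 47, Flvcr1 and Alas1, stood at an unadjusted p under 0.05 with higher values in VSG, and 1 of 47, Steap3, with lower values, where 3.7% and 3.26% of all genes did.

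Among genes of haem handling, Alas1, the first enzyme of haem synthesis, stood at 139 ± 24.4 CPM in VSG and 105.8 ± 32.9 CPM in SPF (SD, n = 5 each). Its log2 fold change was 0.40 ± 0.21 (SE) over 10 libraries and 0.62 ± 0.19 (SE) over 7 (edgeR adjusted p = 0.977 and 0.633). Slc46a1, a folate transporter that can carry haem, stood at 82.3, 63.0 and 313 CPM in VSG 2, SPF 2 and SPF 4 and at 11 to 27 CPM in the other 7, the reverse of Slc40a1. Its log2 fold change was -1.35 ± 0.90 (SE) over all 10 and 0.34 ± 0.36 (SE) over the 7. Flvcr1, a haem exporter, had -0.04 ± 0.46 (SE) over all 10, with its highest library SPF 2 at 124 CPM, and 0.91 ± 0.27 (SE) over the 7 (edgeR unadjusted p = 0.0084, adjusted p = 0.633). Slc48a1, a haem transporter of lysosomes, had -0.19 ± 0.15 (SE). Abcg2, which can export porphyrins, was the other iron pathway gene below in all 3 libraries high in Gata4, at 141 to 181 CPM against 288 to 447 CPM. It was the 1 of the 46 further genes below, and 5 lay above: Slc46a1, Slc39a14, Cpox, Slc25a28 and Ireb2. Of all genes, 5.64% lay below and 6.08% above.

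Reductases and storage genes other than the 7 had a median log2 fold change of -0.076, with 2 of 9 higher. Steap3, a ferrireductase of endosomes, stood at 13.02 ± 2.34 CPM in VSG and 15.97 ± 4.99 CPM in SPF (SD, n = 5 each), with log2 fold changes of -0.30 ± 0.22 (SE) over 10 libraries and -0.51 ± 0.20 (SE) over 7. Steap2, of the same family, had a log2 fold change of -0.23 ± 0.25 (SE), and Ncoa4, which delivers ferritin for breakdown, -0.19 ± 0.24 (SE). Ftl1 stood at 598 to 734 CPM in VSG and 459 to 956 CPM in SPF, and its highest library was SPF 3, whereas that of Fth1 was SPF 4.

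The 3 regulators of the hairpins had log2 fold changes just below 0 over 10 libraries and above 0 over 7. Aco1, which encodes iron regulatory protein 1, had a log2 fold change of -0.07 ± 0.24 (SE) over 10 libraries and 0.34 ± 0.17 (SE) over 7. Ireb2, iron regulatory protein 2, had -0.06 ± 0.27 (SE) and 0.35 ± 0.21 (SE), and Fbxl5, which marks Ireb2 for degradation when iron is present, -0.10 ± 0.20 (SE) and 0.24 ± 0.16 (SE). None of the 3 stood at an unadjusted p under 0.05 in either set.

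Other uptake genes had a median of 0.10, with 5 of 9 higher. Lcn2, which binds bacterial siderophores, averaged 2.11 ± 1.05 CPM in VSG and 1.13 ± 0.41 CPM in SPF (SD, n = 5 each), with an edgeR adjusted p of 0.977. Atp7a, the copper exporter of enterocytes, had a log2 fold change of 0.88 ± 0.46 (SE), and Cp, ceruloplasmin, 0.26 ± 0.27 (SE). Of the hepcidin axis, 4 of 8 genes passed the filter over 10 libraries, without Hamp, and 5 of 8 over the 7, with Hamp. Over 10 libraries Hfe, which takes part in iron sensing, had -0.34 ± 0.16 (SE), Erfe, a hormone of red cell precursors, -0.10 ± 0.17 (SE), and Neo1 0.09 ± 0.17 (SE). The mitochondrial genes Slc25a28 and Iscu had -0.30 ± 0.30 and -0.05 ± 0.13 (SE).

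Hypoxia factors are of interest because Epas1 (HIF-2α) is known to drive Slc11a2, Cybrd1 and Slc40a1 in the duodenum of mice. All 9 genes of this list had positive log2 fold changes in both sets of libraries, with a median of 0.13 over 10 and 0.21 over 7. So did 6573 of all 15678 genes over 10 libraries and 6869 of 15911 over 7. The list holds inhibitors such as Hif1an beside the factors, so a shared sign is no measure of their activity. At an unadjusted p under 0.05 stood 0 of the 9 over 10 libraries and 1, Epas1 itself, over 7. Of all genes, 1.88% and 3.7% did so with higher values in VSG. Epas1 averaged 85.9 ± 7.96 CPM in VSG and 78.3 ± 30.6 CPM in SPF (SD, n = 5 each), and its highest library was SPF 4. Its log2 fold change was 0.13 ± 0.22 (SE) over 10 libraries (edgeR adjusted p = 0.981) and 0.44 ± 0.18 (SE) over 7 (edgeR unadjusted p = 0.0361, adjusted p = 0.696). Hif1a, an oxygen-regulated transcription factor, stood at 89.9 ± 37.9 CPM in VSG and 64.2 ± 28.8 CPM in SPF (SD, n = 5 each). Hif1an, which inhibits it, had a log2 fold change of 0.17 ± 0.11 (SE) and Hif3a 0.36 ± 0.42 (SE). Of 14 hypoxia-inducible genes, 9 had higher and 5 lower values, among them Vegfa at 0.41 ± 0.23 (SE), Adm at 0.72 ± 0.41 (SE) and Ndrg1 at -0.42 ± 0.27 (SE). In the 7 libraries 10 of the 14 were higher in VSG. Of these, 2 stood at an unadjusted p under 0.05, where 3.7% of all genes did with higher values in VSG. They were Vegfa at 0.64 ± 0.25 (SE) and Pfkfb3 at 0.98 ± 0.43 (SE). In the 3 libraries high in Gata4, 4 of these 14 lay below the other 7, as did 5.64% of all genes.

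Bach1, a repressor of Hmox1 and of ferritin genes, stood at 274, 238, 366, 293 and 307 CPM in VSG 1 to 5 and at 263, 184, 125, 132 and 151 CPM in SPF 1 to 5. SPF 1 alone overlapped the VSG range. Its log2 fold change was 0.79 ± 0.22 (SE), with an edgeR unadjusted p of 0.00388 and an adjusted p of 0.977. Over all 10 libraries 1 of 11 Nrf2 and Bach1 genes, Bach1, stood at an unadjusted p under 0.05 with higher values in VSG, where 1.88% of all genes did. Over the 7 libraries 3 of 11 did, where 3.7% of all genes did: Bach1 at 0.79 ± 0.26 (SE), and Gclm and Txnrd1, of glutathione and thioredoxin metabolism, at 0.52 ± 0.16 and 0.41 ± 0.17 (SE). The lowest edgeR adjusted p among the 3 was 0.633. Srxn1, a repair enzyme for peroxiredoxins, had 0.38 ± 0.20 (SE) and Nqo1, a quinone reductase, -0.39 ± 0.20 (SE).

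**Figure D4:**
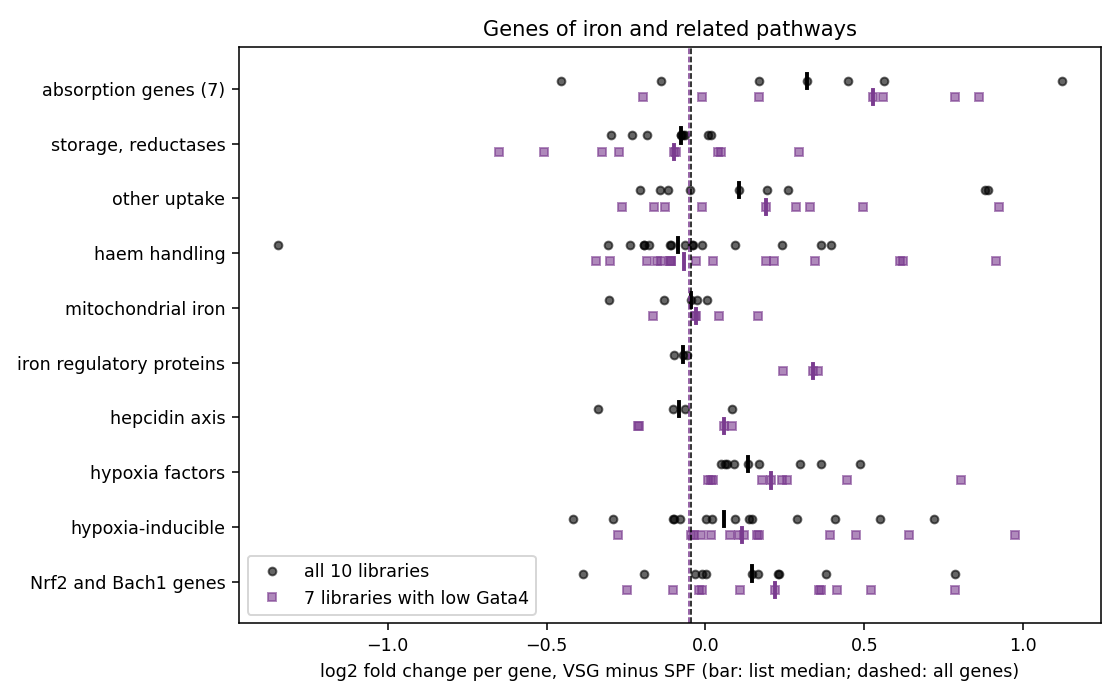
Log2 fold change per gene, VSG minus SPF, for the 7 absorption genes and 9 further lists, over all 10 libraries (black circles) and over the 7 with low Gata4 (purple squares), with list medians as bars and the all-gene medians as dashed lines. The absorption genes have medians of 0.32 and 0.53 beside dashed lines at -0.045 and -0.051, and over the 7 libraries the medians of the other lists run from -0.099 (storage, reductases) to 0.338 (iron regulatory proteins).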

How the data were processed

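Per the labels' protocols, libraries were made with an Illumina TruSeq RNA kit and sequenced as single-end 50-bp reads. The authors deposited estimated counts per gene, of which 33.33% of the values above 0 are exactly whole, in tables named for RPKM. A second deposited table holds log2 values, equal to the log2 of the count over a library factor minus the SPF median. The submitters' processing notes name DESeq and the build mm9. The aligner was not given in these sources. Coordinates printed are of GRCm38, from the annotation used here.

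Estimated counts were rounded and tested with edgeR 4.0.16 in R 4.3.3 (filterByExpr, TMM, quasi-likelihood F test on surgery alone, Benjamini-Hochberg adjustment at 0.05), after the procedure was tested on simulated data. In those data it recovered 29% of 2-fold changes with 10 libraries and 23% with 7. A count of 0 genes called therefore does not mean that no gene changed. A prior count of 2 was used for log2 CPM. Alternatives were other scaling factors and filters, DESeq2 1.42.0, limma-voom (limma 3.58.1), limma on the deposited log2 values, a replicate block, a Gata4 term and leaving libraries out. Members and lists were chosen with earlier results of these data known. Besides the 7 genes, each iron, hypoxia or oxidative stress list gives up to 3 genes, those of lowest p among genes averaging 1 CPM or more. Of the genes this names, 1 is not reported here. Abcg2, Ftl1, Lyz2, Epas1, Flvcr1, Pfkfb3, Gclm, Txnrd1 and the values per library of Slc46a1 and Bach1 were picked after their values were seen. Pancreas and colon markers were also summed. Colon markers reached 398 to 712.5 CPM in VSG and 312 to 1265 CPM in SPF, and pancreas markers reached at most 0.43 CPM.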

Additional observations from a re-analysis of the deposited data

How the results depend on the processing

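The number of libraries limits these results: the 7 libraries with low Gata4 hold only 3 SPF mice. No member was called under any setting. The count of called genes, 0 with edgeR, was 11 with DESeq2, 1 with limma-voom and sample weights, and 2 when VSG 4 was left out with the 3 libraries high in Gata4. The causes were not tested. At an unadjusted p under 0.05 the count was 595, against 2409 with sample weights, 1015 with no filter, 1107 without the 3 libraries, 1135 without VSG 2, 1940 without SPF 3, 1033 with a term for gene length (chosen after seeing the data), and 692 to 3305 when each other library was left out with the 3, the highest for SPF 3.

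Slc11a2, Slc40a1, Heph and Tfrc had positive log2 fold changes in all 30 alternatives, at 0.20 to 0.58, 0.71 to 1.41, 0.37 to 0.70 and 0.42 to 1.00, with edgeR or alternative adjusted p from 0.177 to 1. Leaving out 1 library at a time gave Fth1 values of -0.61 to 0.0079. Settings chosen after seeing the data, each leaving out 1 more library beside the 3, turned the sign of small values. Fth1 was 0.41 without SPF 3, 0.065 without VSG 3 and 0.014 without VSG 4, Hmox1 was -0.0022 without SPF 3, and Cybrd1 was 0.037 without SPF 1. Within the 7 libraries, r with Gata4 was -0.26 for Slc40a1 and -0.23 for Cybrd1 with the mean of upper small intestine markers in place of Gata4, and -0.26 and -0.30 without the 2 libraries farthest in Gata4.

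Same-numbered libraries, each taken less the mean of its group, correlated at -0.32 to 0.18. Of the 5 pairs, 1 was over 0.1, and 0 VSG libraries correlated best with their own number. The highest correlation between a VSG and an SPF library was 0.52, for VSG 2 and SPF 4, which are both high in Gata4. Such correlations follow Gata4 level too, so whether the numbers pair the mice cannot be told from them. With a replicate block 0 genes were called, and 408 stood at an unadjusted p under 0.05.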
